A study of Mus musculus with 16 samples.

Results

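The 9 genes described here belong to the late granules and the mature stage of the neutrophil, and were followed across mouse liver and liver tumours: Ltf, Camp, Ngp, S100a8, S100a9, Cd177, Csf3r, Retnlg and Slpi. They were picked by symbol from the 47069 gene IDs of 1 table of normalised counts, and all 9 were in it. They were picked with their levels already known, above all their levels in livers of 5 months, so those levels are given as a description with no test. All 16 libraries came from mice treated with diethylnitrosamine (DEN), a carcinogen that hepatocytes activate and that induces hepatocellular carcinoma, so that no group here is free of the carcinogen. The series text places them in a study of diets rich in fructose or in corn starch. The 6 groups were tumours of 9 months under a high-fructose diet (n = 3), tumours of 9 months under a cornstarch diet (n = 2), livers of 9 months under fructose (n = 3) and under cornstarch (n = 3), and livers of 5 months under fructose (n = 2) and under cornstarch (n = 3). The labels give neither strain nor sex. Nor do they tie libraries to individual mice, so each p-value here refers to the spread among the libraries at hand, which may be technical in part.

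Neutrophils mature in the bone marrow and fill their granules in a fixed order. Primary granules, with myeloperoxidase and serine proteases, are made first by promyelocytes, specific granules follow in myelocytes and metamyelocytes, and surface receptors for migration come last. Ltf encodes lactoferrin, the iron-binding protein of specific granules, Camp the cathelicidin antimicrobial peptide precursor and Ngp the neutrophilic granule protein, a relative of the cathelicidins. S100a8 and S100a9 encode the subunits of calprotectin, which fills the neutrophil cytosol, binds zinc, manganese and calcium, and is a ligand of TLR4. Cd177 is a surface protein that partners the integrin Itgam/Itgb2, and Csf3r is the receptor of the granulocyte colony-stimulating factor. Retnlg is a secreted resistin-like protein of rodent myeloid cells, and Slpi is an inhibitor of neutrophil elastase that epithelia also secrete.

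Their positions are those of GENCODE M21 on GRCm38. Camp (ENSMUSG00000038357, chr9:109847379-109849617, minus strand), Ngp (ENSMUSG00000032484, chr9:110419747-110423012, plus strand) and Ltf (ENSMUSG00000032496, chr9:111019271-111042767, plus strand) lie on chromosome 9. S100a8 (ENSMUSG00000056054, chr3:90668978-90670035, plus strand) and S100a9 (ENSMUSG00000056071, chr3:90692632-90695721, minus strand) lie 22.6 kb apart with no gene between them. Cd177 (ENSMUSG00000052212, chr7:24743983-24760311, minus strand), Csf3r (ENSMUSG00000028859, chr4:126024550-126044440, plus strand), Retnlg (ENSMUSG00000022651, chr16:48872621-48874496, plus strand) and Slpi (ENSMUSG00000017002, chr2:164354070-164389095, minus strand) are each the only one of the 9 genes on their chromosome. Slpi overlaps Mir7678 on its own strand, and the reads of that pair cannot be told apart here.

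Because 8 of the 9 genes were highest in the 5-month fructose livers and Slpi was highest in tumours, the 250 bases before the RefSeq start site are shown for 4 of the 8 and for Slpi (RefSeq, GRCm38.p6). The GENCODE gene model of some of them begins before that site. Capitals mark 3 motifs searched on both strands: TATAAA (the TATA box), TTGCNNAA (a C/EBP-type site) and GAGGAA (a core of PU.1 and other ETS factors, TTCCTC on the other strand). In S100a8 the second TTCCTC and the TATA box abut with no base between them. A match is a description and not a binding site.
Ltf, chr9:111019042-111019291, plus strand: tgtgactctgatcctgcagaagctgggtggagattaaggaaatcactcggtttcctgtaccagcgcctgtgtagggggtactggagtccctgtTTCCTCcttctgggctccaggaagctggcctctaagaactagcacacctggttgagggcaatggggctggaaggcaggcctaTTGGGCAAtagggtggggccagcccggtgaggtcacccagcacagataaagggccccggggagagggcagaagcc
Ngp, chr9:110419558-110419807, plus strand: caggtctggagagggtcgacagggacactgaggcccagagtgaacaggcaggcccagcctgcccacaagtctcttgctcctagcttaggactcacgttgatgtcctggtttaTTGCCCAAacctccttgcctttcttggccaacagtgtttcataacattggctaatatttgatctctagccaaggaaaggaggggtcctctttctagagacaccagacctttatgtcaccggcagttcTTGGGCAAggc
S100a8, chr3:90668821-90669070, plus strand: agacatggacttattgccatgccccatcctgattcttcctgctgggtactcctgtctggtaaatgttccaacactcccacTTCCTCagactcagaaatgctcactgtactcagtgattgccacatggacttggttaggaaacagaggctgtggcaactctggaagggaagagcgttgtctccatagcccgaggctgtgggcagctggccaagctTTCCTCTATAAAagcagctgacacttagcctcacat
S100a9, chr3:90695722-90695971, minus strand: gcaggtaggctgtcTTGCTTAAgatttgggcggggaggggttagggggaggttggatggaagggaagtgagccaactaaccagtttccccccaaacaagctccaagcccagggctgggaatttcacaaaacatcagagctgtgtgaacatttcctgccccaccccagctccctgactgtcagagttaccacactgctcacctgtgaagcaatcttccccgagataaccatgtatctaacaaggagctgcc
Slpi, chr2:164356508-164356757, minus strand: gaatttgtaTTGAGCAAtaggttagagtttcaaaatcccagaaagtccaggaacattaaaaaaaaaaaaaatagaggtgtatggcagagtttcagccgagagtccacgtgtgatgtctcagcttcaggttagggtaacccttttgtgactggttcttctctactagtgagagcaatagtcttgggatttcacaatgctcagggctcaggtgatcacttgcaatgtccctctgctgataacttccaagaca

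TTGCNNAA was found in 5 of the 9 windows and in 9.56% of 32851 RefSeq windows of the same length. It began at base -75 in Ltf, -138 and -11 in Ngp, -236 in S100a9, -246 in Retnlg and -241 in Slpi, counted from the start site. GAGGAA was found in 4 of the 9 and in 23.3% of all windows, at -157 in Ltf, -170 and -36 in S100a8, -192 in Cd177 and -86 in Csf3r. TATAAA was found in 2 of the 9 and in 12.4% of all windows, at -30 in S100a8 and -40 in Cd177. None of the 3 was found in the Camp window.

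The libraries held 11232461 to 38377674 reads over the listed genes, recovered from the steps of the normalised counts. A normalised count is a gene's reads in a library scaled by the authors with 1 factor for that library. Markers of hepatocytes (8 genes) took 8.51% to 21.0% of the normalised counts of every library, livers and tumours alike. Between libraries of the same group the chi-square per degree of freedom was 38.7 to 207, so no library repeated another within sampling noise. A single library of each 5-month group, replicate 1, expressed the female transcript Xist, at 12936 under fructose and 10883 under cornstarch, with a Y-linked signal of 0 and 1.91. Both 5-month groups were therefore mixed, and their first value below is always that library's. Replicate 3 of the 9-month cornstarch livers had an Xist level of 226 beside a Y-linked sum of 1593, and the other Y-positive libraries had Xist levels of at most 25.8. Leaving it out gave 0 of the 9 genes called for diet in 9-month livers, as with it.

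At 5 months, all 9 genes were higher in both fructose livers than in any of the 3 cornstarch livers, by ratios of group means between 6.68 for Csf3r and 1905 for Ngp. Of the 14317 genes with values high enough to compare, 27.1% were higher and 24.7% lower in the fructose livers without overlap. This contrast is the one in which the 9 genes were known to stand out, and nothing is read from their count. The median log2 fold change of the 9 genes was 8.52, against -0.01 over all genes compared. The ratios of several genes hung on the cornstarch library with Xist, and those without it are given beside them (an alternative added after the data were seen). In bulk tissue, fewer cells of a type and less RNA per cell cannot be told apart.

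The specific granule genes were near or at 0 in the cornstarch livers. Ltf stood at 2983 and 2603 normalised counts in the 5-month fructose livers, against 11.5, 0 and 0 in the 5-month cornstarch livers. Ngp stood at 4641 and 3844 in the 5-month fructose livers, against 6.68, 0 and 0 in the 5-month cornstarch livers. Camp stood at 1006 and 714 in the 5-month fructose livers, against 2.86, 0 and 0 in the 5-month cornstarch livers. For all 3 genes, 1 cornstarch library held every read of its group, its Xist library. The ratio of group means was 732 for Ltf and 1905 for Ngp. Camp rested on 3 reads in the cornstarch livers, which gives a ratio of 901 with a counting interval of 264 to 3759 (95%, counting error only).

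Calprotectin transcripts were the most abundant of the 9 genes in the 5-month fructose livers per kilobase of exon, at 13129 ± 304 normalised counts per kilobase for S100a9 and 5686 ± 224 for S100a8, followed by Ngp at 3472 ± 461 (SD, n = 2). Not divided by length, S100a9 stood at 6741 and 6966 normalised counts in the 5-month fructose livers, against 43.9, 5.14 and 22.6 in the 5-month cornstarch livers, a ratio of means of 287. S100a8 stood at 4056 and 3836 in the 5-month fructose livers, against 18.1, 2.05 and 9.32 in the 5-month cornstarch livers, a ratio of 401. Unlike the specific granule genes, both had reads in every one of the 16 libraries. The cornstarch library with Xist was again the highest of its group for both genes, and without it the ratios were 494 for S100a9 and 694 for S100a8.

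The surface receptors differed from each other. Cd177 stood at 621 and 565 normalised counts in the 5-month fructose livers, against 3.82, 2.05 and 1.33 in the 5-month cornstarch livers, a ratio of 247. Csf3r stood at 405 and 390 in the 5-month fructose livers, against 67.8, 48.3 and 62.6 in the 5-month cornstarch livers, a ratio of 6.68. Csf3r had the smallest ratio of the 9 genes and averaged 59.5 ± 10.1 (SD, n = 3) in the cornstarch livers, where Cd177 averaged 2.40 ± 1.28. Csf3, which encodes the ligand of this receptor, had 0 reads in all 16 libraries, which allows up to 0.0782 to 0.267 CPM depending on depth (3 reads, counting error only).

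Of the secreted proteins, Retnlg stood at 454 and 484 normalised counts in the 5-month fructose livers, against 7.64, 1.03 and 0 in the 5-month cornstarch livers, a ratio of 162. Without the cornstarch library with Xist, 1 read of Retnlg is left in that group and no ratio is given. Slpi stood at 169 and 256 in the 5-month fructose livers, against 21.95, 5.14 and 10.7 in the 5-month cornstarch livers, a ratio of 16.9, or 26.9 without the cornstarch library with Xist. Slpi was the 1 gene of the 9 that was not highest in the 5-month fructose livers. Its group means ran from 442 ± 159 in fructose tumours (SD, n = 3) and 346 ± 110 in cornstarch tumours (n = 2) through 213 ± 61.3 in 5-month fructose livers (n = 2) and 126 ± 67.0 in 9-month fructose livers (n = 3) to 15.8 ± 12.2 in 9-month cornstarch livers (n = 3) and 12.6 ± 8.57 in 5-month cornstarch livers (n = 3). In that order the ranges of the 2 tumour groups overlapped, as did those of the 2 cornstarch liver groups, and the other neighbours did not overlap. The 2 fructose liver groups were parted only by 169 against 168 normalised counts, and in CPM they overlapped. Scaling the reads to CPM left the group with the highest mean the same for each of the 9 genes.

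**Figure D1:**
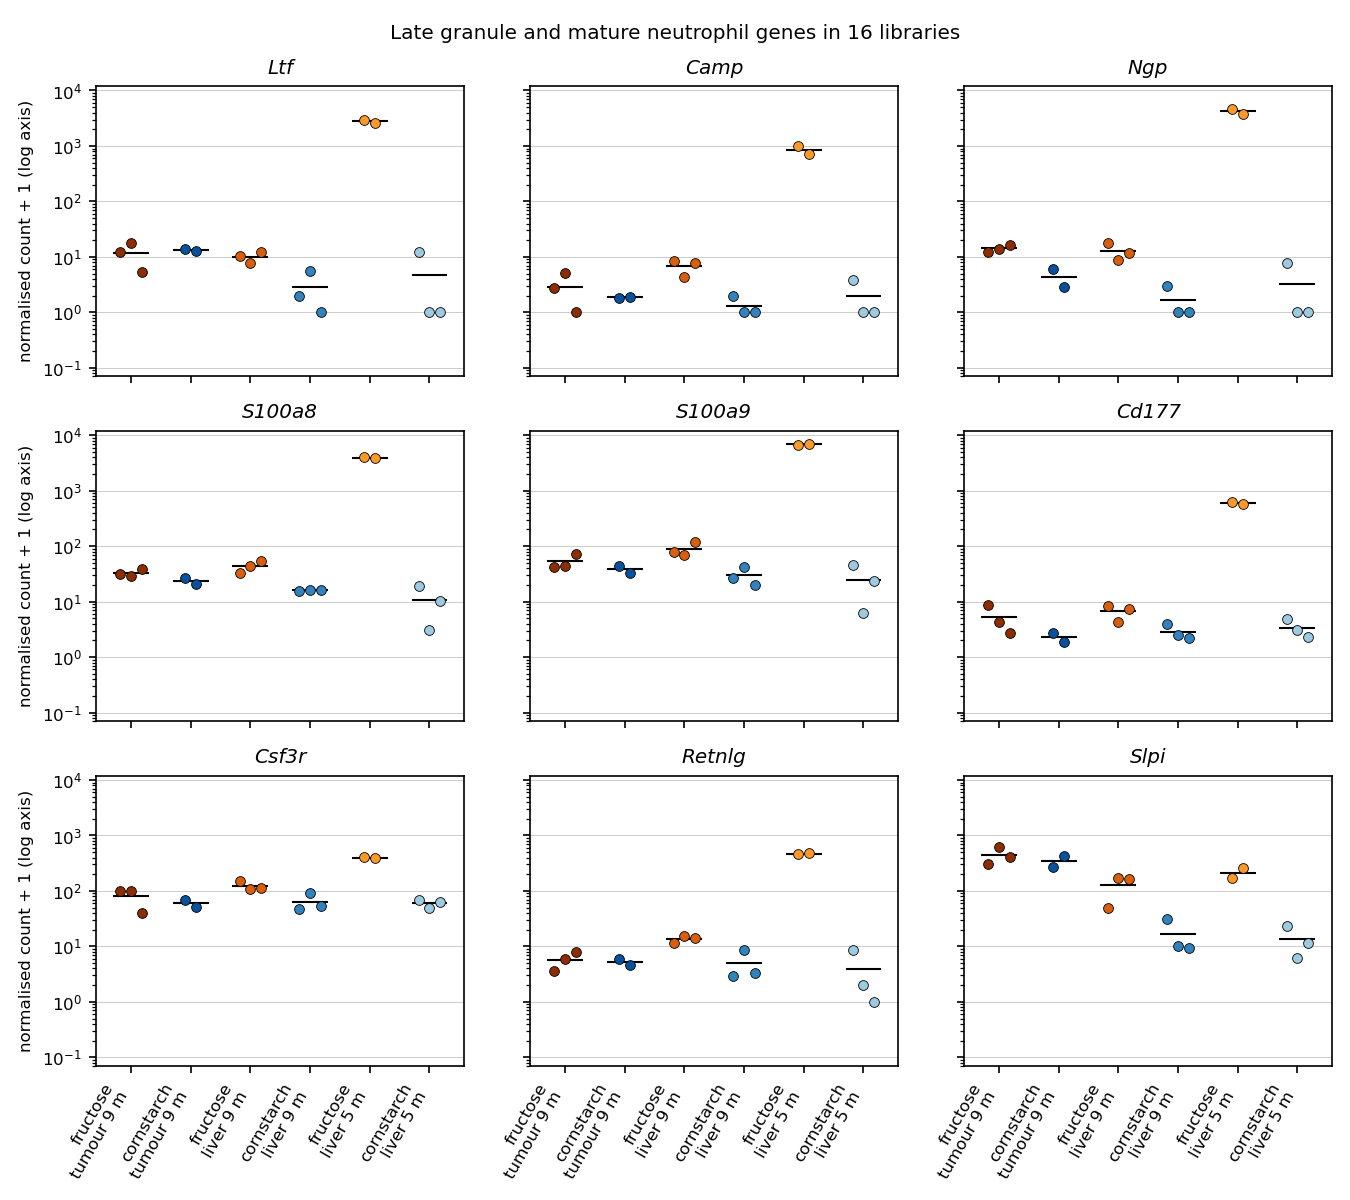
Normalised count plus 1 on a log axis for each of the 9 genes, with 1 point per library, the 6 groups along the horizontal axis and a bar at the group mean. For 8 genes the 2 libraries of 5-month fructose liver stand above all others, and for Slpi the tumours are highest, at 307 to 617 in fructose tumours and 268 and 425 in cornstarch tumours.

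Below the 5-month fructose livers, the order of groups was less distinct. The 9-month fructose livers came next for S100a8, S100a9, Camp, Cd177, Csf3r and Retnlg, and the 9-month fructose livers did not overlap the group after them for Csf3r and Retnlg. For Ltf the cornstarch tumours came second at 12.2 ± 0.550 (SD, n = 2), overlapping the fructose tumours at 10.9 ± 6.33 (n = 3). For Ngp the fructose tumours came second at 13.3 ± 2.20 (n = 3), overlapping the 9-month fructose livers at 11.8 ± 4.47 (n = 3), and both lay above all cornstarch groups. The lowest group was a cornstarch group for each of the 9 genes.

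The make-up of the signal also differed, on the scale of normalised counts per kilobase of exon. The 9 genes summed to 25987 and 25054 per kilobase in the 5-month fructose livers, against 174, 33.0 and 83.6 in the 5-month cornstarch livers. Ltf, Camp and Ngp made up 23.0% and 19.3% of this sum in the 5-month fructose livers and 0% to 7.97% in the other 14 libraries. Per unit of calprotectin, the specific granule genes stood at 0.319 and 0.257 in the 5-month fructose livers and at 0 to 0.169 elsewhere. The 9 genes were picked with these levels known, so the mix in the 5-month fructose livers is given as a description. Shares and ratios of 0 elsewhere come from cornstarch livers without a read of Ltf, Camp or Ngp, where depth limits them. The ratio of S100a9 to S100a8 was 2.21 and 2.41 in the 5-month fructose livers, inside the range of 1.64 to 3.59 over all libraries. Csf3r ran the other way, at 0.00599 and 0.00572 per unit of calprotectin in the 5-month fructose livers and 0.0569 to 1.05 elsewhere.

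**Figure D2:**
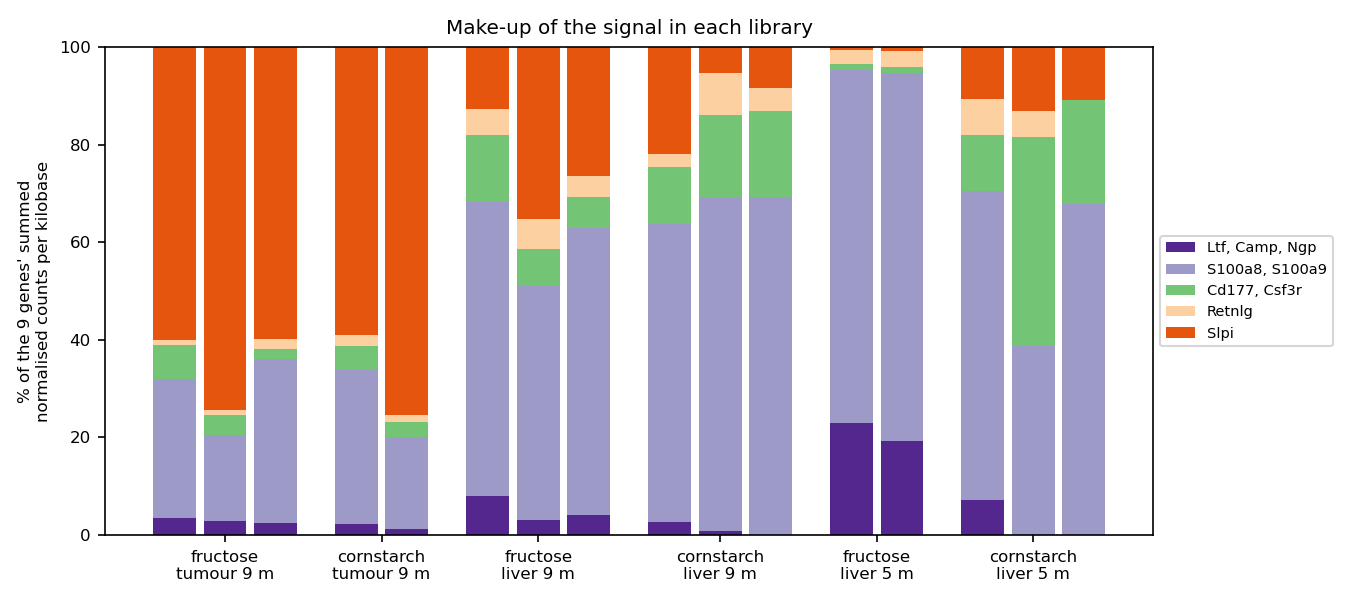
Share of the summed normalised counts per kilobase of the 9 genes taken by each gene group, with 1 stacked bar per library. Ltf, Camp and Ngp take 23.0% and 19.3% in the 5-month fructose livers, and Slpi takes 59.0% to 75.5% in the 5 tumours.

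Other genes of the pathway followed in the 5-month livers, in lists drawn up with results of these data known. Of 29 other late granule and mature neutrophil genes, 24 were higher in the fructose livers without overlap, and none was lower. Of all genes compared, 27.1% were higher and 24.7% lower. Neither the 29 nor the lists that follow were held to the minimum level of the genes behind those shares. Stfa1, for example, counted as higher on 3 reads. Ly6g, the surface antigen used to recognise mouse neutrophils (named after its values were seen), ranged from 59.4 to 71.5 in the 5-month fructose livers. It had 0 reads in all cornstarch livers and cornstarch tumours, 6 reads in the 9-month fructose livers and 3 in the fructose tumours. All 8 primary granule and precursor genes, 12 of 16 ligands, receptors and partners (1 lower) and 7 of 8 granulocyte transcription factors (1 lower) were higher without overlap. The lists share genes, among them Prtn3, Cebpe and Cxcr2, so these counts are not independent. The 16 include Csf3, which had no reads. Cxcl1, a chemokine that draws neutrophils through Cxcr2, averaged 873 ± 366 (SD, n = 2) in the 5-month fructose livers and 119 ± 45.7 (n = 3) in the 5-month cornstarch livers. Spi1, which encodes the transcription factor PU.1, averaged 465 ± 40.6 in the 5-month fructose livers and 125 ± 30.6 in the 5-month cornstarch livers.

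Markers of other blood cells moved with the 9 genes at 5 months. The summed level of 12 monocyte and macrophage markers was 18362 to 21460 normalised counts in the fructose livers and 6937 to 12377 in the cornstarch livers, with 11 of 12 higher without overlap, to be read beside the 27.1% of all genes that were higher and the 24.7% that were lower, as are the counts that follow. Red cell precursor markers summed to 6536 to 8624 in the fructose livers and 1497 to 3083 in the cornstarch livers (5 of 8 higher). Blood stem and progenitor markers summed to 433 to 478 in the fructose livers and 173 to 234 in the cornstarch livers (5 of 6 higher), and Myb and Hoxa9 were at 0 in the cornstarch livers. Eosinophil, basophil and mast cell markers summed to 67.4 to 80.2 in the fructose livers and 3.82 to 5.33 in the cornstarch livers (7 of 8 higher), with Epx, Mcpt8, Fcer1a and Ms4a2 at 0 under cornstarch. B and plasma cell markers summed to 828 to 987 in the fructose livers and 208 to 570 in the cornstarch livers (6 of 6 higher). T and NK cell markers did not follow, with 1 of 7 higher and 1 lower, at sums of 105 to 151 in the fructose livers and 89.7 to 121 in the cornstarch livers. Bile duct epithelial markers summed to 1225 to 2753 in the fructose livers and 403 to 668 in the cornstarch livers (2 of 6 higher). The part of these cell types in the values of the 9 genes, Slpi included, was not tested.

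The livers of 9 months give the same diet contrast, and results of these libraries too were known when the genes were chosen. All 9 genes were higher in the 3 fructose livers than in the 3 cornstarch livers without overlap, where 12.7% of 14503 genes tested were higher and 10.6% lower. None passed the test: of the 7 genes with a normalised count of at least 10 in at least 2 of the 11 libraries of 9 months, 0 had a limma adjusted p under 0.05. The test is a linear model of log2(normalised count + 1), with p-values adjusted over all genes tested, and log2 fold changes are on that scale. No gene of the whole table passed in this comparison (0.00% called), while 2167 genes and all 7 of these had an unadjusted p under 0.05. Camp and Cd177 were too low to be tested, so they are not among the 14503 genes behind the 12.7% and 10.6%. Retnlg reached the minimum only through the fructose livers and Ngp only through the fructose groups. Neither the count over the 9 nor the count over the 7 is therefore support for a difference.

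Slpi showed the largest ratio of means among the genes with more than 3 reads in each group. It stood at 48.9, 168 and 162 normalised counts in the 9-month fructose livers, against 29.9, 9.22 and 8.34 in the 9-month cornstarch livers. Its log2 fold change was 2.95 (SE 0.56, limma adjusted p = 0.0752). The lowest fructose liver lay above the highest cornstarch liver by a small margin, and the other 2 of each group lay further apart. Bile duct epithelial markers, of a cell type that can secrete Slpi, summed to 1265 to 1598 in the 9-month fructose livers and 835 to 1026 in the 9-month cornstarch livers (4 of 6 higher without overlap), and their part in this difference was not tested. Ngp stood at 16.6, 7.84 and 10.9 in the 9-month fructose livers, against 1.93, 0 and 0 in the 9-month cornstarch livers (limma adjusted p = 0.0752), and no fold is given for the 2 reads under cornstarch. Camp stood at 7.28, 3.36 and 6.80 in the 9-month fructose livers, against 0.964, 0 and 0 in the 9-month cornstarch livers.

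The calprotectin genes had the smallest standard errors of the 7 on the log2 scale. S100a8 stood at 31.2, 43.7 and 53.9 normalised counts in the 9-month fructose livers, against 14.5, 15.4 and 15.5 in the 9-month cornstarch livers (log2 fold change 1.41, SE 0.28, limma adjusted p = 0.0758). S100a9 stood at 79.1, 68.3 and 119 in the 9-month fructose livers, against 26.0, 41.5 and 19.1 in the 9-month cornstarch livers (1.62, SE 0.35, limma adjusted p = 0.0797). The 3 fructose livers lay above the 3 cornstarch livers for both subunits. Ltf stood at 9.36, 6.72 and 11.3 in the 9-month fructose livers, against 0.964, 4.61 and 0 in the 9-month cornstarch livers (2.16, SE 0.68, limma adjusted p = 0.185). Retnlg stood at 10.4, 14.6 and 13.1 in the 9-month fructose livers, against 1.93, 7.68 and 2.38 in the 9-month cornstarch livers (1.62, SE 0.55, limma adjusted p = 0.210). Lactoferrin and resistin-like transcripts thus differed without overlap and with wider errors. Csf3r stood at 150, 106 and 111 in the 9-month fructose livers, against 45.3, 89.1 and 52.4 in the 9-month cornstarch livers (1.01, SE 0.38, limma adjusted p = 0.255). Cd177 stood at 7.28, 3.36 and 6.34 in the 9-month fructose livers, against 2.89, 1.54 and 1.19 in the 9-month cornstarch livers.

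The calls in this comparison depended on the tool. DESeq2 on the recovered reads called 4 of the 9 genes, Slpi (DESeq2 adjusted p = 0.000178), S100a9 (0.00413), S100a8 (0.0084) and Ngp (0.0337), among 544 genes in all. As Ngp reached the minimum only through the fructose groups, its call is no support. The edgeR quasi-likelihood test on the same reads called none of the 9 and no gene of the table. Over all alternatives, 0 to 4 of the 9 genes were called, and every one of the 7 tested genes kept its direction. In the 9-month livers, monocyte and macrophage markers summed to 14297 to 20206 under fructose and 2853 to 8263 under cornstarch (10 of 12 higher without overlap, with no marker at 0). Their part in the diet difference of the 9 genes was not tested.

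The related lists gave no call in the 9-month livers either. None of 20 other late granule and mature neutrophil genes tested passed, at a median log2 fold change of 1.40 against -0.02 over all genes tested. Mmp8 and Cxcr2 reached the minimum only through fructose groups, so that median is no support for a difference. The smallest p-values among the 20 belonged to Cybb and Itgam. Cybb, the membrane subunit of the phagocyte oxidase, stood at 2.02 (SE 0.41, limma adjusted p = 0.0758). Itgam, the CD11b integrin chain, stood at 2.18 (SE 0.51, limma adjusted p = 0.0890). Of the partners, 0 of 12 tested passed, with Itgb2, the integrin chain that pairs with Itgam, at 2.17 (SE 0.44, limma adjusted p = 0.0758) and Tlr4 at 1.503 (SE 0.32, limma adjusted p = 0.0797). Of the transcription factors, 0 of 7 tested passed, with Spi1 at 1.79 (SE 0.34, limma adjusted p = 0.0752) and Stat3, which signals below Csf3r, at 0.51 (SE 0.14, limma adjusted p = 0.137). Of the primary granule genes, 0 of 3 tested passed. Cybb, Itgb2, Tlr4 and Spi1 are also expressed by macrophages.

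In tumours, 3 of the 9 genes differed between the diets without overlap, and none passed the test. Of the whole table, no gene passed (0.00% called, 1178 with an unadjusted p under 0.05, 1 of the 7 among them), and DESeq2 called none of the 9. Ngp, S100a8 and Cd177 were higher in all 3 fructose tumours than in both cornstarch tumours, where 10.9% of genes were higher and 12.5% lower. Ngp stood at 11.3, 12.9 and 15.7 normalised counts in fructose tumours, against 5.05 and 1.82 in cornstarch tumours (log2 fold change 1.78, SE 0.66, limma adjusted p = 0.531). S100a8 stood at 30.4, 27.5 and 37.4 in fructose tumours, against 26.1 and 20.0 in cornstarch tumours (0.45, SE 0.31, limma adjusted p = 0.738). Cd177 stood at 7.83, 3.24 and 1.74 in fructose tumours, against 1.68 and 0.911 in cornstarch tumours. Its lowest fructose tumour and its highest cornstarch tumour held 2 reads each, so scaling alone parted them. Cd177 was too low to be tested and is not among the genes behind the 10.9% and 12.5%. The gaps were narrow for S100a8 and Cd177, and Ngp was the 1 gene with an unadjusted p under 0.05. As Ngp reached the minimum only through the fructose groups, that p-value is no support for a diet difference in tumours.

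The other 6 genes overlapped between the diets in tumours. S100a9 ranged from 41.7 to 71.3 in fructose tumours and from 31.9 to 43.8 in cornstarch tumours. Csf3r ranged from 39.1 to 99.1 in fructose tumours and from 51.0 to 67.3 in cornstarch tumours. Ltf, at 4.35 to 16.99 in fructose tumours and 11.8 to 12.6 in cornstarch tumours, was the 1 tested gene with a negative log2 fold change (-0.32, SE 0.76), and it became 0.17 without replicate 3 of the fructose tumours. Retnlg ranged from 2.61 to 6.96 in fructose tumours and from 3.64 to 5.05 in cornstarch tumours, and Camp from 0 to 4.05 in fructose tumours and from 0.841 to 0.911 in cornstarch tumours. Slpi stood at 307, 617 and 402 in fructose tumours, against 268 and 425 in cornstarch tumours (0.33, SE 0.62, limma adjusted p = 0.915), with a sign that turned without replicate 1 of the cornstarch tumours (-0.0021).

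The difference between the diet effects was tested itself. For none of the 7 genes did the difference pass (limma adjusted p = 0.999989 for each, with 0.00% of all genes called). The difference was largest for Slpi, at -2.63 on the log2 scale (SE 0.84), followed by Ltf at -2.48 (SE 1.02). Of the 7, 4 had an unadjusted p under 0.05 (Slpi, Ltf, S100a8 and S100a9), among 424 genes in all.

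**Figure D3:**
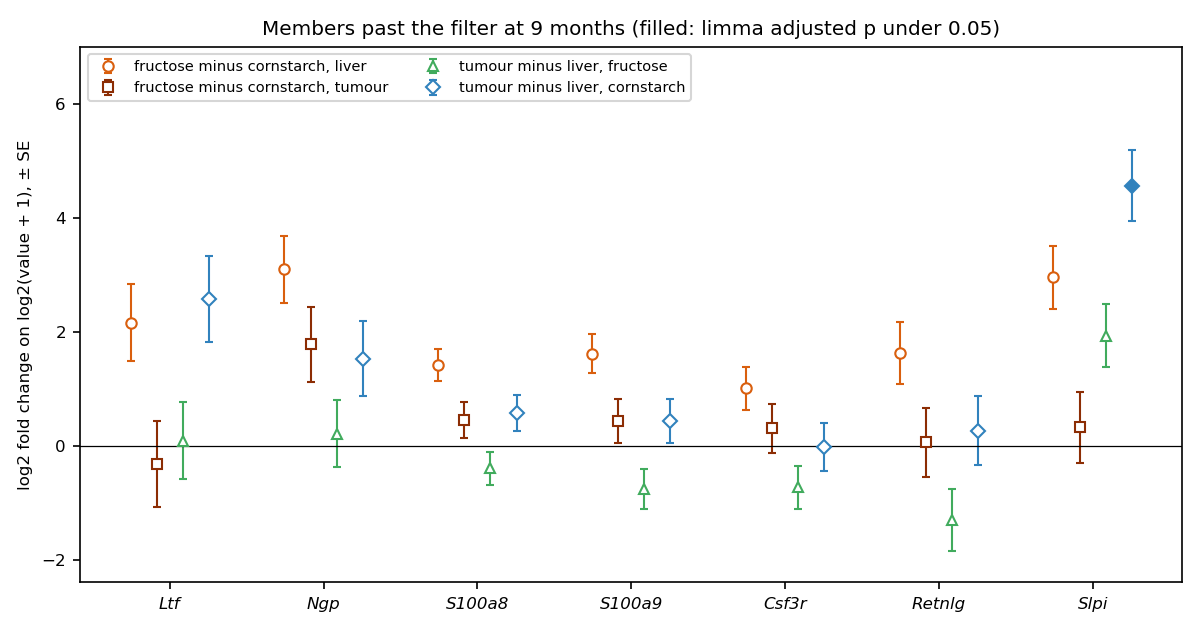
Log2 fold change on the scale of log2(normalised count + 1), with its standard error, for the 7 genes that passed the minimum at 9 months, in 4 comparisons marked by symbol. The filled symbol, at 4.56 for Slpi between cornstarch tumours and cornstarch livers, is the 1 value with a limma adjusted p under 0.05, and the diet differences in liver are smallest for Csf3r at 1.01. Retnlg and Ngp passed the minimum only through fructose groups.

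Tumours were compared with livers of the same diet and age. Under cornstarch, Slpi was the 1 gene of the 9 that passed: it rose to 268 and 425 normalised counts in tumours, against 29.9, 9.22 and 8.34 in livers (log2 fold change 4.56, SE 0.62, limma adjusted p = 0.00428). In this comparison 5.71% of all genes were called, 4.82% higher and 0.889% lower. Without replicate 2 of the cornstarch tumours the call was lost (4.23, limma adjusted p = 0.0640), with the remaining tumour taken to vary like the other groups. Ltf stood at 12.6 and 11.8 in cornstarch tumours, against 0.964, 4.61 and 0 in cornstarch livers (2.57, SE 0.76, limma adjusted p = 0.0743). It passed with DESeq2 (adjusted p = 0.0491) and without replicate 2 of the cornstarch livers (limma adjusted p = 0.0467), which leaves 1 read in that group and so no fold, and its adjusted p ran from 0.0467 to 0.408 over all alternatives. Ltf, S100a8 and Slpi were higher in cornstarch tumours without overlap, where 21.8% of genes were higher and 18.7% lower. S100a9, Csf3r and Retnlg overlapped, at log2 fold changes of 0.43 (SE 0.39), -0.02 (SE 0.42) and 0.26 (SE 0.61), and the last 2 turned sign when 1 library was left out.

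Under fructose, none of the 7 passed, while 10.2% of all genes did, 5.75% higher and 4.46% lower. Slpi came nearest, with 307, 617 and 402 normalised counts in tumours, against 48.9, 168 and 162 in livers (log2 fold change 1.93, SE 0.56, limma adjusted p = 0.0528). It was the 1 gene higher in fructose tumours without overlap, where 17.2% of genes were. It passed with edgeR (adjusted p = 0.0466) and DESeq2 (adjusted p = 0.00656). Csf3r and Retnlg were lower in fructose tumours without overlap, where 16.8% of genes were. Csf3r stood at 99.1, 97.9 and 39.1 in fructose tumours, against 150, 106 and 111 in fructose livers (-0.73, SE 0.38, limma adjusted p = 0.248). Retnlg stood at 2.61, 4.85 and 6.96 in fructose tumours, against 10.4, 14.6 and 13.1 in fructose livers (-1.30, SE 0.55, limma adjusted p = 0.156). Every fructose tumour thus lay above every fructose liver for Slpi and below it for Csf3r and Retnlg, with no call for any of the 3. Retnlg reached the minimum only through the fructose livers, so its lower level in fructose tumours is no support for a difference. Monocyte and macrophage markers summed to 3563 to 11370 in fructose tumours and 14297 to 20206 in fructose livers, with 4 of 12 lower without overlap and 2 called lower, and their part in the lower Csf3r and Retnlg was not tested.

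Slpi parted from the other 8 genes in tumours. It took 59.9% to 74.3% of the per-kilobase sum of the 9 genes in fructose tumours and 59.0% to 75.5% in cornstarch tumours. In 9-month livers its share was 12.7% to 35.2% under fructose and 5.25% to 21.8% under cornstarch. In 5-month livers it was 0.552% and 0.866% under fructose and 10.7% to 13.2% under cornstarch. The other 8 genes summed to 173 to 228 normalised counts per kilobase in fructose tumours and 117 and 158 in cornstarch tumours, against 262 to 381 in 9-month fructose livers and 77.8 to 141 in 9-month cornstarch livers. In this sum every fructose tumour lay below every 9-month fructose liver, and the cornstarch tumours overlapped the 9-month cornstarch livers. Slpi was higher in tumours than in 9-month livers of the same diet without overlap. Bile duct epithelial markers (6 genes, mostly Spp1 by level) summed to 2010 to 10010 in fructose tumours and 3422 to 7900 in cornstarch tumours, against 1265 to 1598 in 9-month fructose livers and 835 to 1026 in 9-month cornstarch livers. In cornstarch tumours 4 of the 6 were higher without overlap, where 21.8% of genes were. In fructose tumours 1 of the 6 was, where 17.2% of genes were, and none was lower in either. Their median log2 fold change was 1.23 under cornstarch and -0.21 under fructose, so the higher sum in fructose tumours was not shared by the list. None of the 6 was at 0 in any group, and their part in the Slpi level was not tested.

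**Figure D4:**
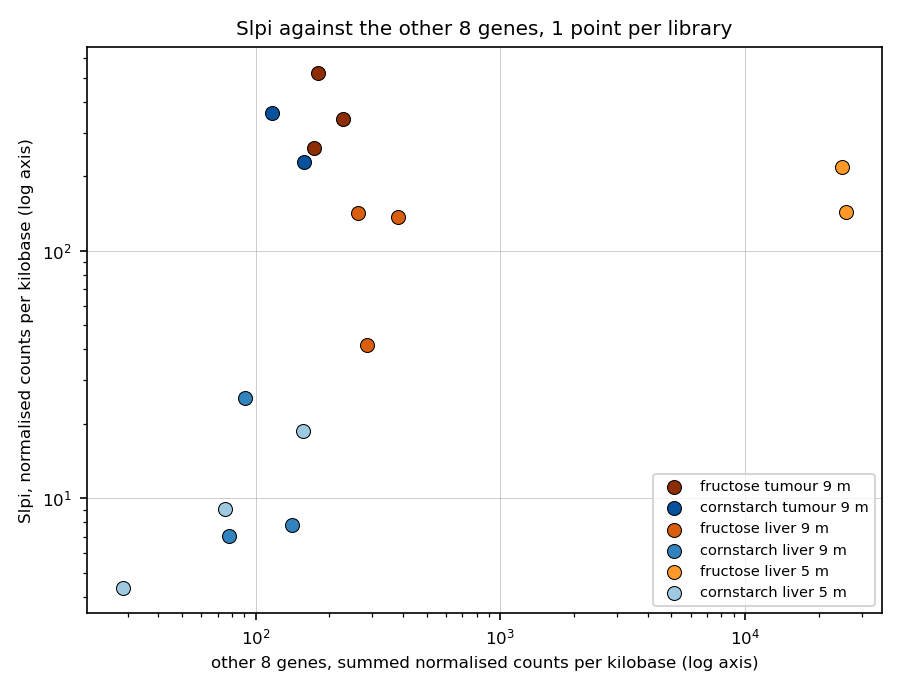
Slpi against the sum of the other 8 genes, both in normalised counts per kilobase on log axes, with 1 point per library. The 2 livers of 5-month fructose lie far to the right, at sums of 25844 and 24837. The 5 tumours lie at the top, at sums of 117 to 228, and the cornstarch livers reach furthest left, down to 28.6.

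Of the 20 other late granule and mature neutrophil genes tested, 3 rose in cornstarch tumours against cornstarch livers, where 4.82% of all genes did, and none fell, where 0.889% did. Lcn2, lipocalin 2 of specific granules, which hepatocytes and epithelia also secrete in inflammation, averaged 6434 ± 209 (SD, n = 2) in cornstarch tumours and 714 ± 866 (n = 3) in cornstarch livers (log2 fold change 3.90, SE 0.89, limma adjusted p = 0.0335). Anxa1, annexin A1, a ligand of formyl peptide receptors, averaged 178 ± 2.40 in cornstarch tumours and 69.6 ± 11.1 in cornstarch livers (1.35, SE 0.26, limma adjusted p = 0.0155). Pglyrp1, a peptidoglycan recognition protein of granules, averaged 45.5 ± 45.1 in cornstarch tumours and 0.964 ± 1.67 in cornstarch livers (limma adjusted p = 0.0185), where its 3 reads allow no fold. Pglyrp1 reached the minimum only through tumours, so its call is no support for a difference. In fructose tumours against fructose livers 1 of the 20 fell, where 4.46% of all genes did, and none rose, where 5.75% did. Wfdc21, the gene that fell, which like Slpi encodes a protein with a WAP domain, averaged 814 ± 594 (n = 3), against 3039 ± 169 (n = 3) in fructose livers (-2.20, SE 0.56, limma adjusted p = 0.0327). No gene of the primary granule, partner or transcription factor lists passed in either comparison.

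Between ages, the 9 genes differed under fructose. In the 3 livers of 9 months all 9 were lower than in both livers of 5 months, without overlap, where 22.3% of 14317 genes were lower and 17.5% higher. The 9 genes were picked for their height in those 5-month livers, so nothing is read from this count. For Slpi the highest 9-month liver stood at 168 normalised counts and the lowest 5-month liver at 169. In CPM these 2 libraries changed order, at 10.2 and 8.42, so that the Slpi groups overlapped. The ratio of the 5-month mean over the 9-month mean was 360 for Ngp, 306 for Ltf, 148 for Camp, 105 for Cd177, 91.9 for S100a8, 77.3 for S100a9, 36.9 for Retnlg, 3.25 for Csf3r and 1.68 for Slpi. These ratios too are given as a description, in which Ngp and Ltf had the largest and Csf3r and Slpi the smallest. Camp and Cd177 rested on 25 and 24 reads in the 9-month fructose livers. Their counting intervals for the 9-month over the 5-month level overlapped (0.00547 to 0.0126 and 0.00742 to 0.0174, counting error only). Camp is therefore not placed above Cd177, which is not a specific granule gene. Under cornstarch, 0 of the 9 differed without overlap between 9 and 5 months, where 9.18% of genes were higher and 8.98% lower at 9 months. The 5-month fructose livers enter both the age and the diet contrast, so that the 2 are not independent, and no test is given.

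The genes most like the 9 were ranked by Pearson correlation with the mean log2 level of the 9, as a description. Over all 16 libraries and 11751 genes, the first 8 were Mpo, the myeloperoxidase of primary granules (r = 0.972), Lsp1 (0.970), Plac8 (0.960), Cyfip2 (0.957), Ly6c2 (0.955), Jak3, a kinase of cytokine receptors (0.953), Arhgdib (0.943) and Kcnab2 (0.942). The libraries share the 2 points of 5-month fructose liver, which lie far above the rest. Over the 11 libraries of 9 months and 11715 genes, the first 8 were Man1c1 (0.958), Tlr13 (0.940), Arhgap25 (0.938), Kcnab2 (0.936), S1pr2 (0.933), Stk10 (0.932), Cyba, a subunit of the phagocyte oxidase (0.928), and Ccdc80 (0.922). Kcnab2 was the 1 gene on both lists. Each of the 9 genes followed the mean of the other 8 over the 16 libraries at r = 0.899 to 0.982, except Slpi at 0.442. Over the 11 libraries of 9 months these values were 0.535 for Retnlg, 0.550 for Slpi, 0.563 for Csf3r and 0.606 to 0.862 for the other 6 genes. Slpi thus stood apart over 16 libraries, where the 2 of 5-month fructose liver weigh most, and lay among the other genes at 9 months.

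The genes that lie between Camp, Ngp and Ltf on chromosome 9 were also looked at in the 5-month livers. Camp and Ngp are 570 kb apart with 22 annotated genes between them, and 10 of these had a normalised count of at least 10 in at least 2 of the 5-month livers. Of the 10, 2 were higher in the 5-month fructose livers without overlap, beside 27.1% of all genes compared, and the largest ratio of means was 5.58, for Mir6236. Ngp and Ltf are 596 kb apart with 29 genes between them, of which 13 reached the minimum, 5 were higher without overlap (also beside 27.1%), and the largest ratio of means was 3.16, for Kif9. On the same scale the ratios of Ltf and Ngp were 732 and 1905, each resting on the reads of 1 cornstarch library.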

How the data were processed

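Expression was measured by mRNA sequencing (TruSeq mRNA kit, per the labels' protocols) in 16 libraries of 6 groups. The authors deposited 1 table of normalised counts, a signal per gene and library; FastQC, Trim Galore, STAR, RSEM, DESeq2 and GRCm38 were used per the submitters' processing notes. Whether counting used strand is not given in the sources used here. Dividing each library by its smallest step gave whole reads, within 0.01, for 100% of values; count tests on these reads are alternatives, and edgeR called 0 genes and DESeq2 544 for diet in 9-month livers. Totals of 11232461 to 38377674 reads per library limit precision for genes of few reads.

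The 11 libraries of 9 months were fitted on log2(value + 1) by limma 3.58.1 (R 4.3.3), using group means and a variance trend. The 14503 genes reaching 10 in 2 or more libraries were tested, with Benjamini-Hochberg adjustment over all of them and a threshold of 0.05. Fold changes on this scale understate the change of low genes. The pipeline was tested on simulated data. Groups with at most 3 reads of a gene get levels and no fold, except a ratio with a counting interval. Levels between genes are per kilobase of exon (union, GENCODE M21). IDs of the table matched GENCODE in 46488 of 47069 cases. Replicates were numbered here in order of listing.

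The 9 genes and all lists were chosen with earlier results of these data known. Named beside them were, per list and 9-month comparison, up to 4 genes past the threshold in each direction or else the 2 with the smallest p, and the 8 genes most like the 9 with a mean of at least 20, leaving out predicted genes and pseudogenes. Alternatives were pseudocounts of 0.5 and 5, no filter and a minimum of 50, TMM, upper quartile and quantile scaling, array weights, edgeR 4.0.16, DESeq2 1.42.0, fits of all 16 libraries, of the 11 livers or of the compared groups, and each library left out in turn.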

Additional observations from a re-analysis of the deposited data

How the results depend on the processing

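Directions and calls held under most alternatives, and the exceptions for the number of the 9 genes called are these. For diet in 9-month livers, where 0 were called, DESeq2 called 4, array weights 2 (S100a8 and Slpi), the fit of all 16 libraries 2 (Ngp and Slpi) and the fit of 11 livers 1 (Slpi). For tumours against livers under fructose, where 0 were called, 1 (Slpi) was called with a pseudocount of 5, edgeR, DESeq2, array weights and the fit of all 16 libraries. For tumours against livers under cornstarch, where 1 was called, DESeq2 called 2, and leaving out 1 library gave 0 to 2. Over all genes, the 1481 calls for tumour against liver under fructose became 2463 with DESeq2, 2246 in the fit of all 16 libraries and 568 to 1518 with 1 library left out, 718 or fewer without any 1 of the fructose livers. The 828 calls under cornstarch became 1696, 1465 and 73 to 644 in the same settings, 73 without replicate 2 of the cornstarch tumours and 355 and 516 without replicates 2 and 1 of the cornstarch livers. For diet in 9-month livers the 0 calls became 544 with DESeq2, 80 with array weights, 309 in the fit of all 16 libraries and 363 in that of 11 livers, and for diet in tumours 107 with DESeq2, 23 without replicate 1 of the fructose tumours and at most 2 otherwise.

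Log2 fold changes near 0 turned sign without 1 library. For tumour against liver under fructose, Ltf became -0.096 without replicate 2 of the fructose livers, -0.021 without replicate 1 and -0.30 without replicate 2 of the fructose tumours (range with 1 library left out -0.30 to 0.58), and Ngp became -0.029 without replicate 2 of the fructose livers (-0.029 to 0.47). Under cornstarch, Retnlg became -0.032 without replicate 1 of the livers (-0.032 to 0.75), and Csf3r became 0.26 without replicate 2 of the livers and 0.17 without replicate 2 of the tumours (-0.22 to 0.26). For diet in tumours, Ltf became 0.17 (-0.71 to 0.17) and Retnlg -0.21 (-0.21 to 0.37) without replicate 3 of the fructose tumours, and Retnlg became -0.13 without replicate 2 and Slpi -0.0021 (-0.0021 to 0.66) without replicate 1 of the cornstarch tumours. The cause of these changes, beyond the fewer libraries, was not tested. No scaling moved the median of all genes by over 0.1.

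No paired analysis was possible because the labels carry no replicate numbers. Camp and Cd177, with 5 or fewer reads in some groups of 9 months, and Ngp under cornstarch are limited by depth. With a minimum of 50 only Csf3r, S100a9 and Slpi were tested.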
